A study of Mus musculus with 4 samples.

Results

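Described here are 10 mouse genes of antigen presentation by MHC class I and of the immunoproteasome, taken by their symbols: B2m, H2-K1, H2-D1, Tap1, Tap2, Tapbp, Psmb8, Psmb9, Psmb10 and Nlrc5. They are 10 of the 53465 entries in the count files, each symbol matched 1 entry, and all 10 were among the 15766 genes that passed the filter on low counts. RNA-Seq had been performed on primary (1°) oligodendroglial cells (OGCs) from mouse forebrain, the cells that pass from OL precursor cells (OPCs) to myelinating oligodendrocytes (OLs), after 3 days under differentiating conditions (3ddiff). The 2 ctrl libraries came from Zfp276 flox/flox mice, in which exons of the zinc finger gene Zfp276 are flanked by loxP sites but not recombined. The 2 Zfp276cko libraries came from mice that carried the same floxed alleles and, in addition, the Sox10::Cre transgene (Sox10::Cre tg), which drives Cre in OGCs from the OPC stage on, so that the deletion is targeted to OGCs and not to other cells of the culture. All 4 cultures thus share the floxed allele, and no library without it or with Sox10::Cre alone was analysed here. Per the study's methods, each of the independent preparations came from 3 mice aged between 2 and 4 days, and male and female mice from a cross of C3H and C57Bl/6J were used. The methods also state that a Rosa26 tdTomato reporter allele with a floxed stop had been crossed into the mice used for culture, to recognize Zfp276cko newborns. Cre thus acts on this reporter as well as on Zfp276, and effects of the 2 cannot be told apart here.

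The MHC class I pathway presents peptides from inside the cell at its surface. Proteasomes cut proteins into peptides, the transporter Tap1/Tap2 carries these into the endoplasmic reticulum, tapasin (Tapbp) holds the empty class I molecule at the transporter, and a heavy chain such as H2-K1 or H2-D1 leaves for the surface together with the light chain B2m and a peptide. In the immunoproteasome, Psmb8, Psmb9 and Psmb10 take the places of the constitutive catalytic subunits Psmb5, Psmb6 and Psmb7, and Nlrc5 is the transactivator that acts on class I promoters. These genes are known to be induced together by interferons, to be expressed by microglia, and to be low in resting cells of the OL lineage.

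Class I promoters are known for short elements at which such regulation acts. The stretches that hold matching letters in these genes are shown here as a description. RefSeq (GRCm38.p6, the build of mm10) gave promoter entries for 8 of the 10 genes, all but Tap2 and Nlrc5. The 250 bases upstream of the start of B2m (plus strand, chr2:122147437-122147686) and of H2-K1 (minus strand, chr17:34000348-34000597) follow, 5′ to 3′, with matches to the searched letters in capitals.
B2m: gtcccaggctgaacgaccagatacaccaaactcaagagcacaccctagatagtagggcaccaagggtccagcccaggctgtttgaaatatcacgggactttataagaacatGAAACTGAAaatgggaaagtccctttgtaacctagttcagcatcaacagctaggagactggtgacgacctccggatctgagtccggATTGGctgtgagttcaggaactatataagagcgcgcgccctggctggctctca
H2-K1: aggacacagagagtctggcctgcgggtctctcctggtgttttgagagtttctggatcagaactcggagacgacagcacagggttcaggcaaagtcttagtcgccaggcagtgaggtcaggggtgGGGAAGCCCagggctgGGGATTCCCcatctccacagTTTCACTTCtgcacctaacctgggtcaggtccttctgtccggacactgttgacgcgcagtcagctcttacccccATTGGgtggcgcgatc

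In B2m the capitals mark an interferon-stimulated response element (ISRE) core, searched as GAAANNGAA, and a CCAAT box on the opposite strand. In H2-K1 they mark 2 kappaB matches (GGGANNNCC), 1 match to an ISRE core with shorter spacing (GAANNGAAA, added to the search after the sequences were seen) and a CCAAT box. The corresponding stretches of H2-D1 (plus strand) are shown as 30 bases each, since they lie in the annotated first exon of a longer GENCODE transcript, and so is a stretch between Tap1 and Psmb9 for the same reason.
H2-D1, kappaB pair (chr17:35262906-35262935): tgGGGAAGCCCagggctgGGGATTCCCcat
H2-D1, ISRE core with shorter spacing (chr17:35262934-35262963): atctcctcagTTTCACTTCtgcacctaacc
Tap1 and Psmb9, shared stretch (plus strand, chr17:34187459-34187488): ccagagacaggTGACGACAgagggtcctgc

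Both heavy chain genes hold these elements in the same order. Aligned without gaps on the first kappaB match, H2-K1 and H2-D1 were identical at 166 of 190 upstream bases (87.4%), and at 44 of 45 bases (97.8%) from the first kappaB match to the end of the ISRE-like match. Tap1 and Psmb9 are read in opposite directions from RefSeq starts 225 nt apart. The single match between them to TGACGNNA, searched as an X2 box or CRE half-site, begins 86 nt before the start of Tap1. The shorter TGACG, not searched as such, also stands upstream of B2m, H2-K1 and H2-D1, in lower case above for B2m and H2-K1. Its share over all entries was not counted. Of all 32851 promoter entries, read over 300 nt on both strands, 8.56% held GAAANNGAA, 7.52% GAANNGAAA, 18.6% GGGANNNCC, 6.61% TGACGNNA and 37.4% CCAAT. The interferon-gamma activated site (TTCNNNGAA, 8.3% of all entries) was matched in Psmb8 alone, CCAAT in 6 of the 8 members with an entry, and none of these letters in the window of Psmb10. The ISRE letters with either spacing can overlap each other on a longer site. A match is a description of letters and does not show that a factor binds there.

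For all 10 genes, both Zfp276cko libraries had higher normalized counts than either ctrl library, a pattern that 26.8% of all tested genes shared (23.7% were below both). The log2 fold change (Zfp276cko over ctrl) lay between 1.01 for H2-K1 and 2.51 for Nlrc5, with a median over the 10 genes of 1.61, beside a median of −0.0013 over all tested genes. On adjustment, edgeR's quasi-likelihood test called 0 of the 10 genes, and 0% of all tested genes passed its thresholds of an adjusted p of 0.05 (Benjamini-Hochberg), a log2 fold change of 0.6 and a mean normalized count of 20. Without adjustment 7 of the 10 genes passed, against 5.11% of all tested genes. The DESeq2 Wald test called 7 of the 10 after adjustment, against 2.92% of all genes it tested. In both cases these were Tap1, Tap2, Tapbp, Psmb8, Psmb9, Psmb10 and Nlrc5, and in both B2m, H2-K1 and H2-D1 did not pass. These are whole cultures, so that more cells of a type that expresses these genes and more RNA per cell cannot be told apart.

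The ctrl libraries differed more from each other than the Zfp276cko libraries did. Every one of the 10 genes was higher in ctrl replicate 1 than in ctrl replicate 2, by 1.28-fold (Tap2) to 6.66-fold (H2-K1), where 49.5% of all tested genes were higher in ctrl replicate 1. The biological coefficient of variation, a measure of spread that leaves out the counting error, stood at 0.354 for ctrl and at 0.0480 for Zfp276cko cells. Counted reads were 21311469 and 21068322 in ctrl replicates 1 and 2, beside 25265366 and 26599809 in the Zfp276cko libraries. Zfp276 itself, counted over the whole gene with the exons that remain after recombination, had normalized counts of 1648 and 2230 in ctrl against 490 and 503 in Zfp276cko libraries, so that no library went against its label.

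**Figure D1:**
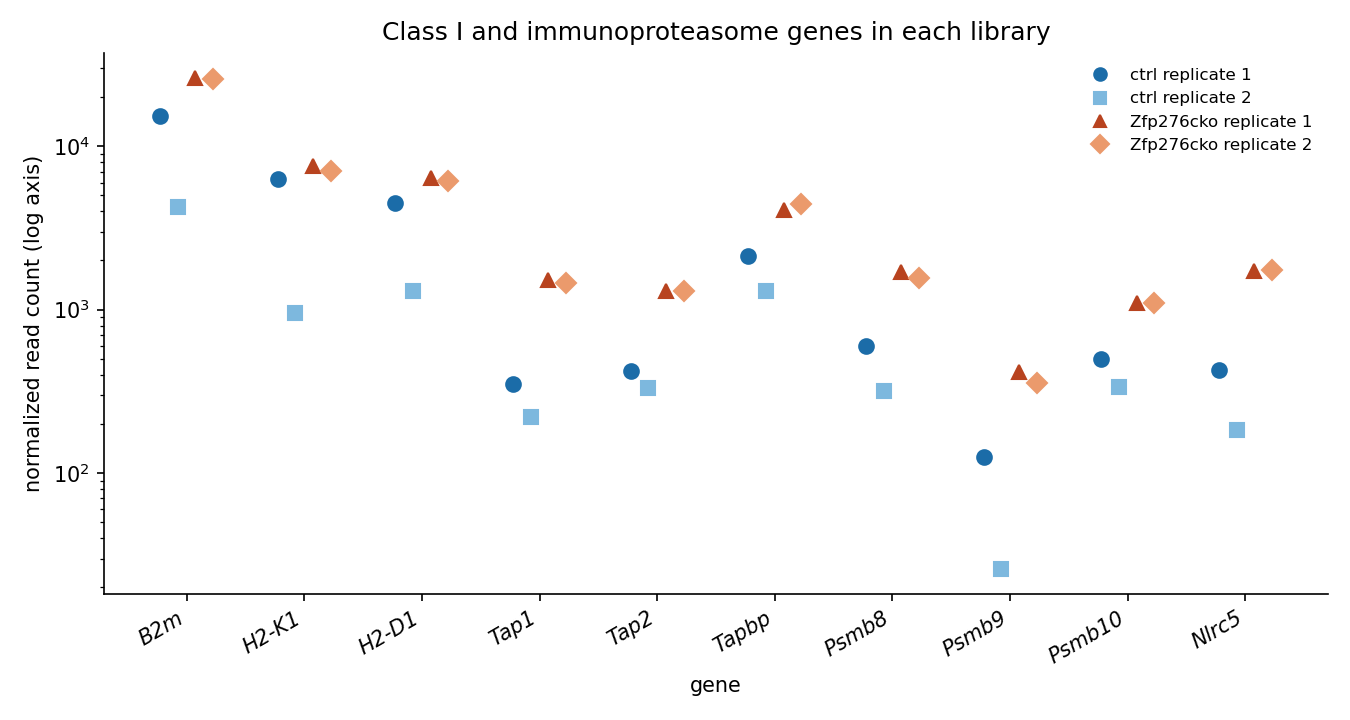
Normalized read counts (log axis) of the 10 genes in each library. Points are the 2 ctrl and 2 Zfp276cko libraries. For each gene both Zfp276cko points lie close together and above both ctrl points, and ctrl replicate 1 lies above ctrl replicate 2, most widely for H2-K1 (6.66-fold) and Psmb9 (4.82-fold).

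B2m, the light chain that every class I molecule needs, is encoded on chromosome 2 of mm10 (chr2:122147686-122153083, plus strand), outside the MHC. In ctrl replicate 1 it had a normalized count of 15213 and in ctrl replicate 2 one of 4260, against 26329 and 25738 in the Zfp276cko libraries, an order of replicates kept throughout. The groups do not overlap, but the ctrl libraries lie 3.57-fold apart. The mean of the Zfp276cko libraries was 1.71-fold that of ctrl replicate 1 and 6.11-fold that of ctrl replicate 2, and the log2 fold change of 1.42 ± 0.63 (SE) had an adjusted p of 0.385 by edgeR's quasi-likelihood test. B2m was the most abundant of the 10 genes by far, with 479 CPM per kb of exon in ctrl and 1281 in Zfp276cko cells (group means). CPM are counts scaled to the effective library size, and levels of different genes are compared per length only.

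H2-K1 and H2-D1 encode classical heavy chains of the mouse and lie apart from each other in the MHC on chromosome 17 (chr17:33996017-34000347, minus strand, and chr17:35262730-35267499, plus strand). H2-K1 had normalized counts of 6333 and 951 in the ctrl libraries and 7618 and 7068 in the Zfp276cko libraries. It showed the widest ctrl spread of the 10 genes, and ctrl replicate 1 came near to the Zfp276cko libraries, whose mean was 1.16-fold higher. The log2 fold change of H2-K1 was 1.01 ± 0.89 (SE, adjusted p = 0.637, edgeR), and without ctrl replicate 2 it was 0.20. H2-D1 had normalized counts of 4495 and 1306 in ctrl against 6381 and 6123 in Zfp276cko cells. Here ctrl replicate 1 was also the nearer one, at a 1.39-fold distance from the Zfp276cko mean. The log2 fold change of H2-D1 was 1.11 ± 0.61 (SE, adjusted p = 0.460, edgeR) and without ctrl replicate 2 it was 0.46. Per length both heavy chains stood at a similar level in Zfp276cko cells, at 106 and 103 CPM per kb.

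The ratio between the heavy chains did not separate the genotypes. That of the light chain to the heavy chains did not do so on the scale of counts, and per length only by a narrow margin. The log2 ratio of H2-K1 to H2-D1 counts within a library was 0.49 and −0.46 in ctrl against 0.26 and 0.21 in Zfp276cko cells, so that the Zfp276cko values lie between the ctrl values (exact permutation test, two-sided p = 1). The log2 ratio of B2m to both heavy chains together was 0.49 and 0.92 in ctrl against 0.91 and 0.96 in Zfp276cko cells (exact permutation test, two-sided p = 0.667). Per length this log2 ratio was 2.18 and 2.58 in ctrl against 2.59 and 2.65 in Zfp276cko cells (exact permutation test, two-sided p = 0.333), where 0.333 is the smallest p that 2 libraries against 2 allow. Both Zfp276cko values then lie above both ctrl values, but the nearest 2 stand at 2.577 (ctrl replicate 2) and 2.595 (Zfp276cko replicate 1). That margin is far smaller than the distance between the ctrl libraries. C57BL/6J and C3H mice carry different alleles of the classical heavy chains, and the alleles of the mice in each preparation are not given in the sources used here. Their part in the counts of H2-K1 and H2-D1 was not tested.

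Tap1, Tap2 and Tapbp, which move and load the peptides, showed a smaller spread between the ctrl libraries. Tap1 (chr17:34187553-34197225, plus strand) had normalized counts of 351 and 222 in ctrl against 1521 and 1457 in Zfp276cko cells. The Zfp276cko mean was 4.24-fold that of the higher ctrl library, while the ctrl libraries were 1.59-fold apart. The log2 fold change of Tap1 was 2.38 ± 0.25 (SE), with an adjusted p of 0.103 by edgeR and of 6.1e-13 by DESeq2. Tap2 (chr17:34203527-34216321, plus strand) had 421 and 330 in ctrl against 1301 and 1302 in Zfp276cko cells. It had the closest ctrl libraries of all 10 genes and the lowest adjusted p by edgeR, 0.0962, at a log2 fold change of 1.79 ± 0.16 (SE). Tapbp (chr17:33915899-33929292, plus strand) had 2119 and 1296 in ctrl against 4050 and 4407 in Zfp276cko cells, with a log2 fold change of 1.31 ± 0.26 (SE, adjusted p = 0.172, edgeR).

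The ratio between the subunits of the transporter also separated the genotypes. Within a library, log2 of Tap1 over Tap2 counts was −0.26 and −0.57 in ctrl against 0.23 and 0.16 in Zfp276cko cells, a difference of 0.61 (exact permutation test, two-sided p = 0.333, the smallest possible). The groups do not overlap, and the ratio moved towards Tap1 in both Zfp276cko libraries. Per length Tap2 was the higher of the pair in both genotypes, at 4.20 beside 2.21 CPM per kb in ctrl and 14.6 beside 11.5 in Zfp276cko cells.

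The immunoproteasome subunits were higher in Zfp276cko cells as well. Psmb8 (chr17:34197721-34201454, plus strand), the subunit with chymotrypsin-like activity, had normalized counts of 599.6 and 318 in ctrl against 1700.2 and 1553 in Zfp276cko cells. Its log2 fold change was 1.83 ± 0.33 (SE, adjusted p = 0.160, edgeR), and the Zfp276cko mean was 2.71-fold and 5.11-fold the value of ctrl replicates 1 and 2. Psmb9 (chr17:34181987-34187764, minus strand), which shares its start region with Tap1, was the lowest of the 10 genes per length, at 0.870 CPM per kb in ctrl, and had normalized counts of 125 and 25.9 in ctrl against 414 and 356 in Zfp276cko cells. Its counts rest on 23 reads in ctrl replicate 2, and its log2 fold change of 2.35 ± 0.76 (SE, adjusted p = 0.281, edgeR) had the largest error after that of H2-K1. Psmb10 lies outside the MHC (chr8:105935735-105938444, minus strand) and had 499.8 and 335 in ctrl against 1098 and 1101 in Zfp276cko cells. Its log2 fold change was 1.40 ± 0.22 (SE, adjusted p = 0.137, edgeR), with each Zfp276cko library more than 2-fold above the higher ctrl library.

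Their constitutive counterparts did not separate the genotypes. Psmb5, Psmb6 and Psmb7 had log2 fold changes of 0.14 ± 0.24, 0.03 ± 0.12 and 0.03 ± 0.10 (SE), with overlapping libraries in all 3 genes and adjusted p between 0.818 and 0.921 by edgeR. Within a library, a ratio of immunoproteasome to constitutive subunit does not depend on the scaling between libraries. The log2 ratio of Psmb8 to Psmb5 was −0.41 and −1.94 in ctrl against 0.54 and 0.57 in Zfp276cko cells, and per length it was below 0 in every library, at −2.32 and −3.85 in ctrl and at −1.37 and −1.34 in Zfp276cko cells. For Psmb9 over Psmb6 the log2 ratio was −4.79 and −7.27 in ctrl against −3.23 and −3.40 in Zfp276cko cells. For Psmb10 over Psmb7 it was −2.58 and −3.29 in ctrl against −1.58 and −1.51 in Zfp276cko cells. In each pair both Zfp276cko values lay above both ctrl values. Of the counts of all 6 subunits, the immunoproteasome subunits took 14.5% and 7.40% in ctrl against 27.8% and 27.5% in Zfp276cko cells, which corresponds to a log2 difference in the ratio of 1.72, or 3.29-fold (exact permutation test, two-sided p = 0.333, the smallest possible). Per length these shares were 12.3% and 6.27% in ctrl beside 22.5% and 22.7% in Zfp276cko cells.

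**Figure D2:**
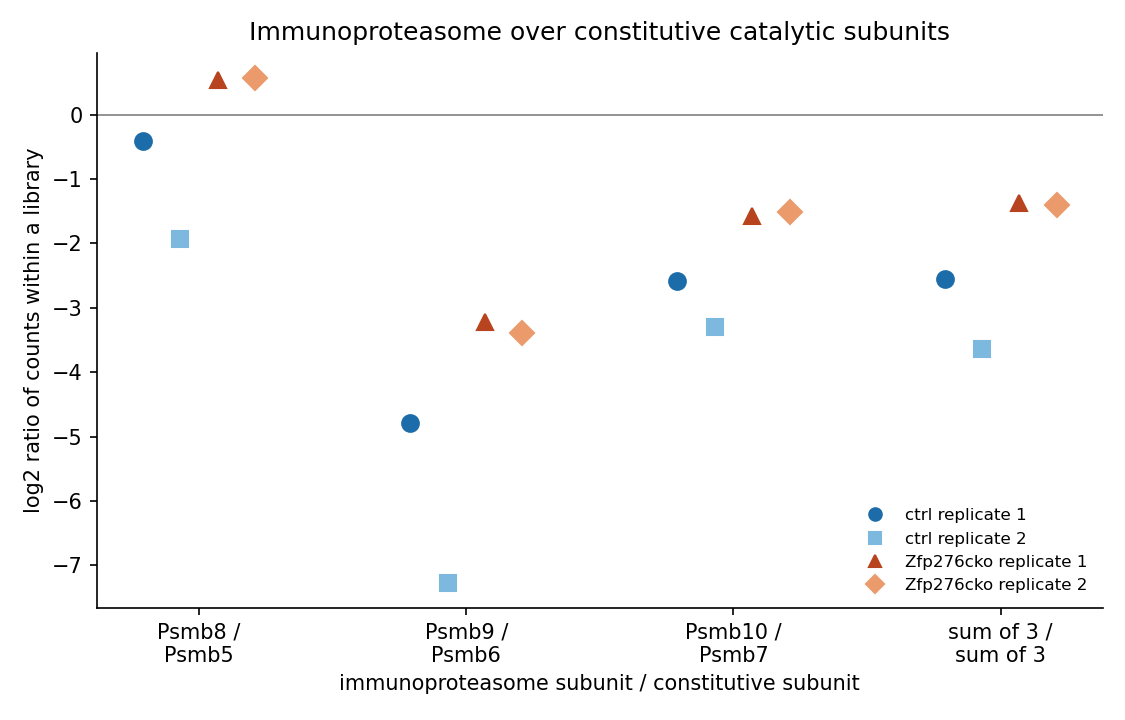
Log2 ratio of the counts of each immunoproteasome subunit to its constitutive counterpart, and of the sums of 3 subunits, in each library. The grey line marks equal counts, which are not corrected for gene length. In every pair the Zfp276cko points lie above both ctrl points, and the sums stand at −2.56 and −3.65 in ctrl and at −1.37 and −1.40 in Zfp276cko cells.

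Nlrc5, the class I transactivator (chr8:94434356-94527272, plus strand), had the largest log2 fold change of the 10 genes. Its normalized counts were 429 and 183 in ctrl against 1732 and 1743 in Zfp276cko cells, so that the Zfp276cko mean was 4.05-fold and 9.47-fold the value of ctrl replicates 1 and 2. The ctrl libraries were 2.34-fold apart, and the log2 fold change was 2.51 ± 0.43 (SE, adjusted p = 0.149, edgeR). Per length it stood at 1.52 CPM per kb in ctrl and 8.66 in Zfp276cko cells, in both cases above Psmb9 alone among the 10 genes.

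Taken one by one, the sizes depend on which ctrl library is the reference. Without ctrl replicate 1 all 10 genes were called, with log2 fold changes between 1.71 and 3.89, and without ctrl replicate 2 the log2 fold changes lay between 0.20 and 2.07 and 8 genes were called, all but H2-K1 and H2-D1. These fits leave 1 ctrl library, which is assumed to vary as little as the Zfp276cko libraries, and they also call 1689 and 1792 genes of the whole table higher. Without Zfp276cko replicate 1 the median log2 fold change of the 10 genes was 1.586, and without Zfp276cko replicate 2 it was 1.616. These 2 fits leave 1 Zfp276cko library and rest on the wide spread of the ctrl libraries. Their calls therefore cannot be set beside those of the fits without a ctrl library. The direction of all 10 genes was the same in every fit run.

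**Figure D3:**
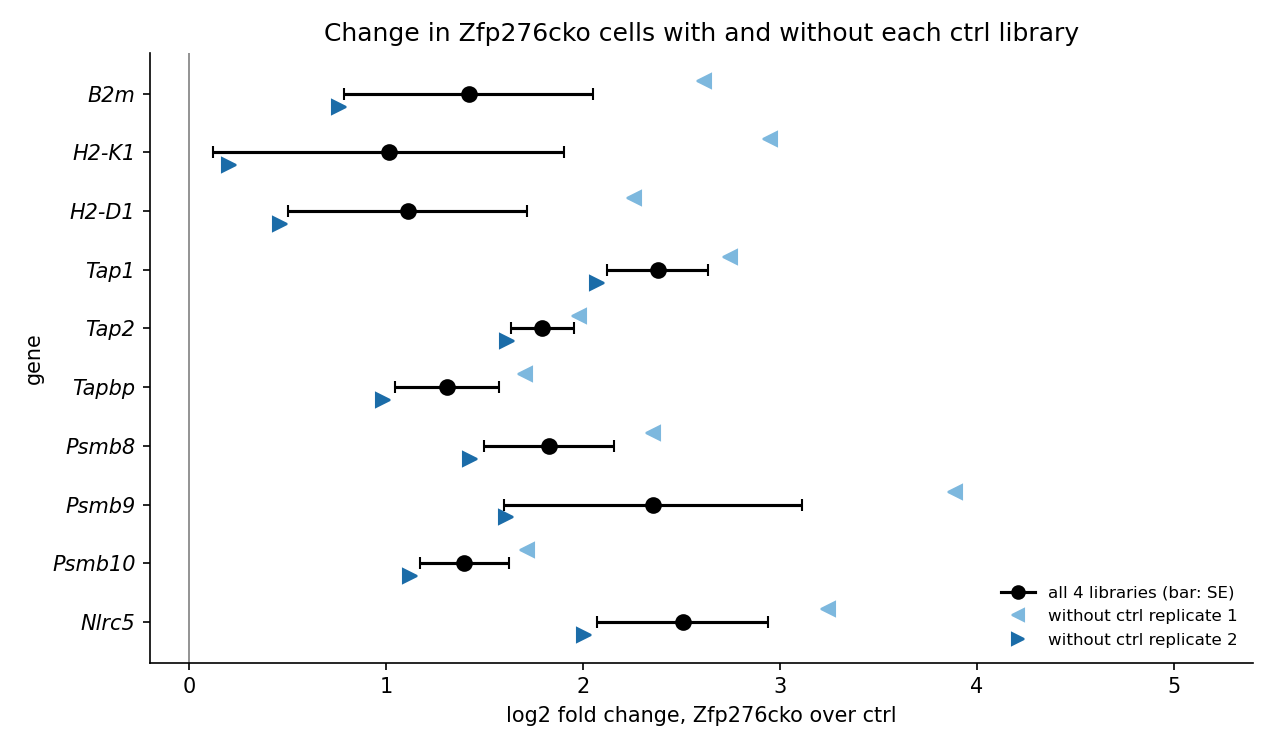
Log2 fold change (Zfp276cko over ctrl) of each gene. Black points and bars are the fit to all 4 libraries and its SE, and triangles the fits without ctrl replicate 1 or without ctrl replicate 2. All points lie above 0, and for H2-K1 the range between the triangles runs from 0.20 to 2.95, while for Tap2 it runs from 1.61 to 1.98.

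Other class I heavy chains and class I-like genes were largely higher in Zfp276cko cells as well. Of 35 listed genes 31 are in the files and 18 were tested. Beside 26.8% above and 23.7% below of all tested genes, 14 of these 18 lay above both ctrl libraries and 0 below. Their median log2 fold change was 1.12. Called by DESeq2 were 4 of the 18, all higher (2.92% of all genes it tested). The unadjusted edgeR thresholds were passed by 6 (5.11% of all tested genes). H2-T22 had normalized counts of 735 and 435 in ctrl against 4377 and 4279 in Zfp276cko cells (log2 fold change 2.89 ± 0.28, SE, adjusted p = 0.103, edgeR). H2-T23, which encodes the non-classical molecule Qa-1, had 754 and 113 in ctrl against 3808 and 3629 in Zfp276cko cells (3.10 ± 0.91, adjusted p = 0.251). H2-T24 had 690 and 81.0 in ctrl against 2426 and 2483 in Zfp276cko cells (2.67 ± 0.98, adjusted p = 0.320). All 3 were thus separated by genotype, and H2-T23 and H2-T24 repeat the wide ctrl spread of H2-K1. Members of this family resemble each other, and 31.2% of the 101-nt windows of H2-T22 transcripts occur in transcripts of other genes, against 3.05% for H2-T23 and 0% for H2-T24. For H2-K1 and H2-D1 this share was 0.905% and 3.55%.

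The listed genes for chaperones and peptide trimming did not separate in this way as a whole. Of 12 genes for chaperones and peptide trimming, 4 lay above both ctrl libraries and 5 below (26.8% and 23.7% of all tested genes). The median log2 fold change was −0.07, with 0 calls by DESeq2 or at an unadjusted p with the fold threshold. The chaperones of the endoplasmic reticulum Calr, Canx and Pdia3 had log2 fold changes of −0.24 ± 0.15, −0.10 ± 0.12 and −0.21 ± 0.11 (SE). These 3 chaperones serve many other proteins as well. Named after their values were seen, the 4 genes above both ctrl libraries were Erap1, Tapbpl, Lnpep and Lap3. Their log2 fold changes were 0.92 ± 0.36, 0.73 ± 0.50, 0.25 ± 0.09 and 0.21 ± 0.09 (SE).

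Among 10 activators and assembly factors of the proteasome, DESeq2 called 2, both higher, against 2.92% of all genes it tested. They were Psme1 and Psme2, the subunits of the PA28 ring that caps the proteasome and is induced by interferon. Psme1 had normalized counts of 1247 and 1057 in ctrl against 2138 and 2073 in Zfp276cko cells (log2 fold change 0.87 ± 0.12, SE, adjusted p = 0.123, edgeR), and Psme2 had 1660 and 1912 in ctrl against 3314 and 3488 in Zfp276cko cells (0.93 ± 0.11, adjusted p = 0.117). Unlike the 10 genes, Psme2 was not higher in ctrl replicate 1. The nuclear activators Psme3 and Psme4 had log2 fold changes of −0.13 ± 0.10 and −0.31 ± 0.09 (SE). The log2 ratio of Psme1 and Psme2 to Psme3 was −0.40 and −0.25 in ctrl against 0.71 and 0.72 in Zfp276cko cells, a difference of 1.04 (exact permutation test, two-sided p = 0.333). The list as a whole had a median log2 fold change of 0.10, and 4 of its genes lay above and 4 below both ctrl libraries.

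Of 13 other subunits of the proteasome core, 12 were tested, with a median log2 fold change of 0.08 and 0 calls by either test. Of these 12, 3 lay above and 1 below both ctrl libraries (26.8% and 23.7% of all tested genes). Psmb1, Psma2 and Psmb4 had log2 fold changes of −0.04 ± 0.09, −0.02 ± 0.10 and 0.03 ± 0.11 (SE). The tested core subunits lay within 0.21 of no difference on the log2 scale, apart from the testis subunit Psma8, named after its values were seen, which had at most 16.3 normalized counts in a library.

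Known regulators of class I transcription were mixed. Of 16 listed genes 15 were tested, 7 above and 1 below both ctrl libraries (26.8% and 23.7% of all tested genes). The median log2 fold change of the 15 was 0.18, with 4 called higher by DESeq2 (2.92% of all genes it tested). Stat2, which carries interferon signals to the nucleus, had normalized counts of 2126 and 936 in ctrl against 5511 and 5368 in Zfp276cko cells (log2 fold change 1.83 ± 0.42, SE, adjusted p = 0.189, edgeR). DESeq2 also called Irf9 and Irf1, named after their values were seen. Irf9, a DNA-binding partner of Stat2, had normalized counts of 1390 and 747 in ctrl against 2982 and 3059 in Zfp276cko cells, and Irf1 had 473 and 345 against 881 and 754. Nfya, a subunit of the factor that binds CCAAT boxes, had a log2 fold change of −0.05 ± 0.09 (SE). Ciita, the class II counterpart of Nlrc5, had at most 3 counts in any library.

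MHC class II genes, which present peptides taken up from outside, served as a contrast, a limited one since most had low counts. Of 9 listed genes 6 were tested, 1 above and 2 below both ctrl libraries (26.8% and 23.7% of all tested genes). Their median log2 fold change was −0.07, with 0 calls by DESeq2 or at an unadjusted p with the fold threshold. H2-DMa, H2-Ab1 and Cd74 had log2 fold changes of −0.38 ± 0.21, 0.15 ± 0.60 and −1.77 ± 0.68 (SE). The gene above both ctrl libraries, named after its values were seen, was H2-DMb1, at 1.12 ± 0.60 (SE). Apart from H2-DMa, the tested class II genes had at most 84.3 normalized counts in any library. The 9 listed genes summed to between 13.2 and 18.3 CPM in the 4 libraries, and the 10 class I and immunoproteasome genes summed to 1294 and 390 in ctrl against 2206 and 2151 in Zfp276cko cells. These sums are not corrected for length, and B2m, H2-K1 and H2-D1 weigh most in that of the 10 genes.

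Within the MHC, these genes stand among neighbours that mostly had lower log2 fold changes. The interval from the start of Tapbp to the end of H2-D1 (chr17:33915899-35267499, 1.35 Mb, chosen after the values were seen) holds 7 of the 10 genes, all above both ctrl libraries, and their median log2 fold change was 1.79. The 67 other tested genes of the interval had a median of 0.05 and a range from −0.58 to 2.16, which reaches into that of the 7 genes. Of these 67, 20 lay above and 11 below both ctrl libraries (26.8% and 23.7% of all tested genes), and 11 had a log2 fold change of at least 0.6. Tap1, Psmb9, Psmb8 and Tap2 lie next to each other, and their log2 fold changes were between 1.79 and 2.38. B2m, Psmb10 and Nlrc5, on chromosomes 2 and 8, had log2 fold changes of 1.42, 1.40 and 2.51, so that the first and second lie below the values of these 4 neighbours and Nlrc5 lies above them.

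**Figure D4:**
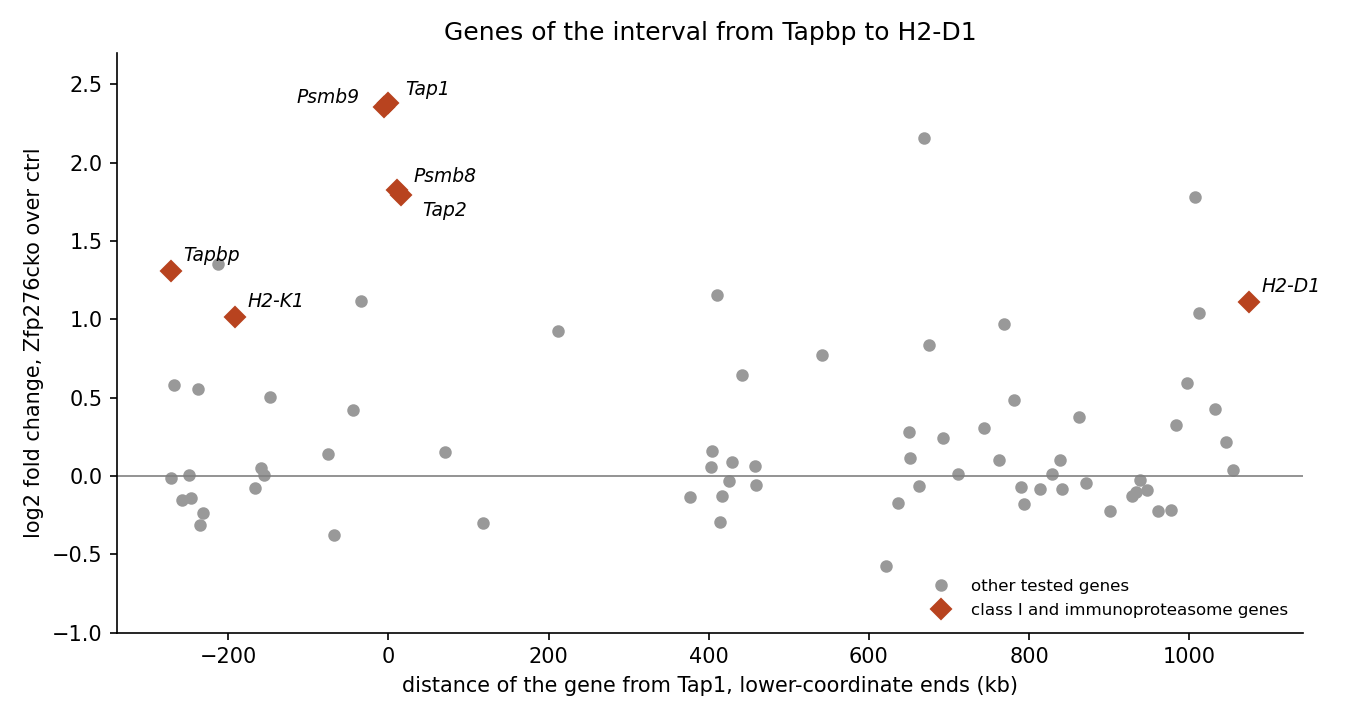
Log2 fold change (Zfp276cko over ctrl) of tested genes from Tapbp to H2-D1 against their distance from Tap1 in kb. Red diamonds are the 7 class I and immunoproteasome genes and grey points the 67 other genes. The diamonds lie between 1.01 and 2.38. The grey points lie between −0.58 and 2.16, with a median of 0.05, so that some fall within the range of the diamonds.

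Some of these genes overlap a neighbour, and the strand setting of the counting is not given in the sources used here. The annotated exons of Tap1 and Psmb9 overlap on opposite strands over 212 nt (3.87% and 5.79% of their exons). Tapbp overlaps Gm19412 over 24.9% of its exons, Psmb8 overlaps Gm20496 over 14.7%, and Tap2 overlaps Gm15821 over 14.1%, all on opposite strands, and Tapbp shares a further 149 nt with Zbtb22 on its own strand. Without strand, reads in these stretches cannot be told apart. B2m, H2-K1, H2-D1 and Psmb10 overlap no other annotated exon.

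Over the 4 libraries, the mean profile of the 10 genes, centred on each gene's mean on the log2 scale, was −0.29 and −1.59 in ctrl against 0.97 and 0.92 in Zfp276cko cells. Psmb8 was the closest to this profile (Euclidean distance 0.282), and Psmb9 (1.07) and H2-K1 (1.06) were the farthest from it. Outside the 10 genes, the 5 most similar genes by this distance were Trim25 (0.0867), H2-T-ps (0.0975), Stat2 (0.103), A230050P20Rik (0.135) and Gm6548 (0.154). Trim25, an E3 ligase, had normalized counts of 1162 and 501 in ctrl against 2732 and 2697 in Zfp276cko cells. With 4 libraries the likeness rests on 3 free values per gene and is a description.

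The cultures held other cells beside OGCs. All 10 markers of the OL lineage passed the filter on low counts, and they summed to 9762 and 12041 CPM in ctrl against 6454 and 6469 in Zfp276cko cells. DESeq2 called 7 of these 10 markers lower in Zfp276cko cells, where it called 338 genes of the whole table lower. Microglia are known to express class I genes and had been depleted during the preparation of the cultures, per the study's methods. The 14 microglia markers (15 entries) summed to 2937 and 2054 in ctrl against 2144 and 2204 in Zfp276cko cells, which overlap. Of the 14 markers 3 lay above and 1 below both ctrl libraries (26.8% and 23.7% of all tested genes). DESeq2 called 2 higher (2.92% of all genes it tested) and 1 lower. Chosen after their values were seen, the 2 higher ones were Ptprc (3018 and 3101 in ctrl, 5092 and 5264 in Zfp276cko cells) and Cd68 (3808 and 2233 in ctrl, 6142 and 5830 in Zfp276cko cells), and the lower one was Fcrls. The part of microglia in the difference between genotypes was not tested.

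Other lists differed between the ctrl libraries. Fibroblast and mural markers summed to 238 CPM in ctrl replicate 1, 41.0-fold the 5.81 in ctrl replicate 2, and at most 7.92 in Zfp276cko cells. Of the 14 microglia markers 10 were higher in ctrl replicate 1, with a median log2 difference between the ctrl libraries of 0.72. Chosen after their values were seen, Csf1r had normalized counts of 11409 and 1850 in ctrl replicates 1 and 2, and Aif1 differed in the opposite direction, with 1248 and 3204. Neuron markers were lower in ctrl replicate 1, at 51.2 and 175 CPM in ctrl against 130 and 124 in Zfp276cko cells. Astrocyte markers summed to 1456 and 1172 in ctrl against 1298 and 1240 in Zfp276cko cells, but only 3 of the 7 were higher in ctrl replicate 1, with a median log2 difference between the ctrl libraries of −0.96. Endothelial markers summed to between 5.76 and 9.80 in the 4 libraries, with Cldn5 at 0 in all. All 7 T and NK cell markers had at most 3 counts in any library and 3 were at 0 in all, which leaves no count evidence of these cells at this depth. The part of these cells in the 1.28-fold to 6.66-fold spread of the 10 genes between the ctrl libraries was not tested.

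**Figure D5:**
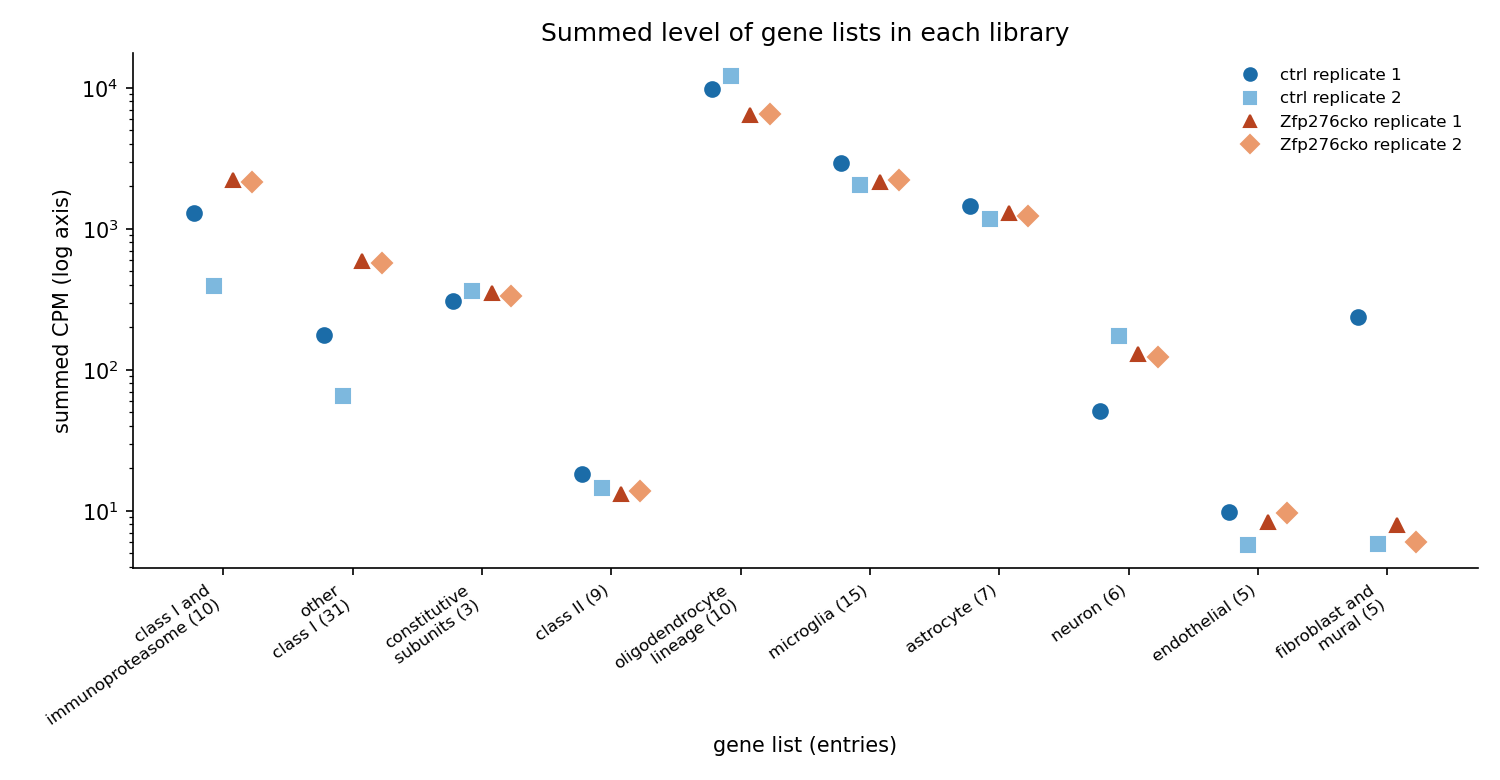
Summed CPM (counts scaled to library size, log axis) of gene lists in each library, with the number of entries in brackets. The 10 class I and immunoproteasome genes reach 2206 and 2151 in Zfp276cko cells beside 1294 and 390 in ctrl, while microglia markers overlap between the genotypes and fibroblast and mural markers stand out in ctrl replicate 1 at 238. Sums are not corrected for length, and that of the 10 genes is mostly B2m, H2-K1 and H2-D1.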

How the data were processed

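RNA-Seq was performed on 4 libraries (TruSeq Stranded mRNA, single reads of 101 bp), 2 ctrl and 2 Zfp276cko. The authors used STAR 2.5.4a for mapping to mm10, and the deposited values are raw counts for each gene symbol, whole numbers that were not normalized. The paper names HTSeq for the counting and the submitters' processing notes name featureCounts 1.5.1. The strand setting is not given in the sources used here. Counted reads per library ranged from 21068322 to 26599809, and errors cover the libraries counted and no further mice.

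Genes were filtered with filterByExpr (15766 left, 99.9% of counts), scaled with TMM factors and compared with the quasi-likelihood test of edgeR 4.0.16 (R 4.3.3), with Benjamini-Hochberg adjustment over all genes tested. For normalized counts, the effective library sizes (total count times TMM factor) were set to their mean. The SE of a log2 fold change is its size divided by the root of the F statistic. Calls used the thresholds of the study's methods. DESeq2 1.42.0 and limma 3.58.1 (voom) were alternatives, beside other size factors, filters and thresholds, a replicate block, and leaving out each library. Ratios within a library were compared with exact permutation tests, whose smallest two-sided p is 0.333. CPM were divided by the length of the exon union in GENCODE M21 (mm10), which gave positions and overlaps, and promoters came from RefSeq (GRCm38.p6). The analysis was tested on simulated counts.

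The 10 genes, the gene lists and the tests were chosen with earlier results of these data known. Named were the 10 genes, Psmb5, Psmb6, Psmb7, Psme1, Psme2, the 3 genes with the highest mean count of each other pathway list, the 5 genes most similar in profile, and Zfp276. Other names are marked in the text or stand for a marker list. A gene that this rule covers is not reported here. The ctrl libraries differed by a chi-square of 86.8 per gene and the Zfp276cko libraries by 5.55, so that within each genotype neither library was a copy of the other.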

Additional observations from a re-analysis of the deposited data

How the results depend on the processing

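The direction of all 10 genes was the same under 11 other settings, and the number of calls was not. The DESeq2 Wald test called 7 of the 10 genes, with 447 genes higher and 338 lower in the whole table, and an unadjusted p of at most 0.05 gave 7 of the 10, with 806 higher and 476 lower. Without a filter on low counts 8 genes of the table were called higher, none of them among the 10. Leaving out each library in turn gave 0 to 10 calls among the 10 genes, 0 to 1792 higher and 0 to 1286 lower in the table, a median log2 fold change of 1.27 to 2.48, and a log2 difference in the ratio of immunoproteasome to constitutive subunits of 1.17 to 2.26. The upper counts come from the fits without a ctrl library, which rest on the spread of the Zfp276cko libraries. With limma voom, with the size factors of DESeq2, with at least 10 counts in every library, with the legacy setting off and with adjusted p alone, 0 of the 10 genes were called, at a lowest adjusted p of 0.0808. The replicate block gave 0 calls and a median of 1.75. Deviations of same-numbered replicates had a correlation of −0.0050. Since the Zfp276cko libraries differ so little from each other, this value cannot decide whether the preparations were paired. Each value rests on 2 libraries per genotype, with ctrl libraries up to 6.66-fold apart over the 10 genes, and that of Psmb9 also on 23 reads in ctrl replicate 2.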
